A study of Mus musculus with 9 samples.

Results

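The transcriptomes of 3 libraries labelled astrocytes (Astro) were compared with those of all 6 libraries of SB28 glioma, 3 from mice given the vehicle (Control) and 3 from mice given BAL101553 (BAL), which together are the 9 libraries of the series. SB28 is a mouse glioma line that was made with a gene for platelet-derived growth factor, activated Nras and a short hairpin against p53, and it carries GFP. BAL101553 (lisavanbulin) is an oral prodrug that activates the spindle assembly checkpoint. All samples came ex vivo from brains of C57BL/6 mice. The labels give BAL101553 as the treatment of the Astro libraries too, so no Astro library comes from an untreated mouse. The study's text does not describe the Astro samples or say how these cells were obtained, whereas it describes the SB28 cells as sorted by GFP and depleted of cells bearing CD45 or CD11b, although the labels call them whole tissue. That text also gives another number of sequenced ex vivo samples per SB28 group than the 3 held here, so its methods may not describe these samples. By its account, Control and BAL tumors differed in treatment and in time of growth together, and these cannot be told apart. Each gene was therefore asked to differ in the same direction from both SB28 groups. The labels do not say whether replicates are separate mice, so p-values measure the spread between these samples, which may be technical.

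Astrocytes are the glial cells that clear glutamate and potassium from around synapses, wrap vessels with their endfeet and pass metabolites to neurons. Most of them do not divide in the adult brain. Glioma cells, in contrast, divide, and growth factors acting through RAS and the MAPK cascade drive transcription factors of the AP-1 family and a mesenchymal program of matrix and contractile genes in many of them.

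The label of the Astro libraries was checked against marker genes. Of 20 astrocyte markers, 19 were higher in Astro than in both SB28 groups at an adjusted p under 0.05 (as were 44.6% of all genes tested), and their summed level was 29559 to 34073 CPM (counts scaled to a common library size by TMM over the 9 libraries) in Astro and 869 to 1369 in SB28. Gfap, the astrocyte intermediate filament, was at 113, 89.6 and 102 CPM in the 3 Astro libraries and at 0.125 to 0.536 in SB28. The Astro libraries also held transcripts of other brain cells. The 10 oligodendrocyte markers summed to 11955 to 14941 CPM in Astro and 22.2 to 32.6 in SB28, with Mbp, a myelin protein, at 3745, 3663 and 2835 CPM in Astro. Ependymal markers summed to 837 to 1396 CPM against 1.80 to 2.50, choroid plexus markers to 1791 to 4203 against 5.63 to 12.7, and microglia and macrophage markers to 776 to 1645 against 197 to 422. No marker of these 4 lists was at 0 in all Astro libraries. The summed neuron markers overlapped, at 30.4 to 39.6 CPM in Astro and 21.8 to 80.2 in SB28. Singly, 6 of the 11 tested were higher in Astro and 3 lower, with a median log2 fold change of 1.82. Of the other lists, 6 of 9 tested oligodendrocyte precursor markers were higher in Astro and 2 lower (35.4% of all genes tested were lower), 6 of 10 endothelial markers were higher and 1 lower, and 7 of 9 mural markers were higher and 1 lower. In bulk samples, fewer cells of a type and less RNA per cell cannot be told apart. The part of these other cells in the rises given below was not tested, and the comparison is of the Astro libraries as a whole with SB28. Values given below for the tumor cells are likewise those of whole SB28 libraries, and the part of other cells in them was not tested. The SB28 libraries held 9126 to 15041 CPM of the fibroblast list, which was at 155 to 192 in Astro. Of its 6 genes, 4 were lower in Astro. Dcn and Lum leaned the other way (log2 fold changes 1.62 and 3.21) and did not pass against both SB28 groups. Single markers also went against their lists, since Tmem119, a microglial membrane protein, was at 154 to 377 CPM in SB28 with 37.4, 58.1 and 48.2 in Astro. Cdh5, the cadherin of endothelial junctions, was at 485 to 815 CPM in SB28 and at 17.2, 21.2 and 23.3 in Astro. The whole endothelial list summed to 553 to 921 CPM in SB28 and 306 to 364 in Astro, so this gene made most of its SB28 sum. Tmem119 likewise weighed heavily in the microglia and macrophage sum of SB28.

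**Figure D1:**
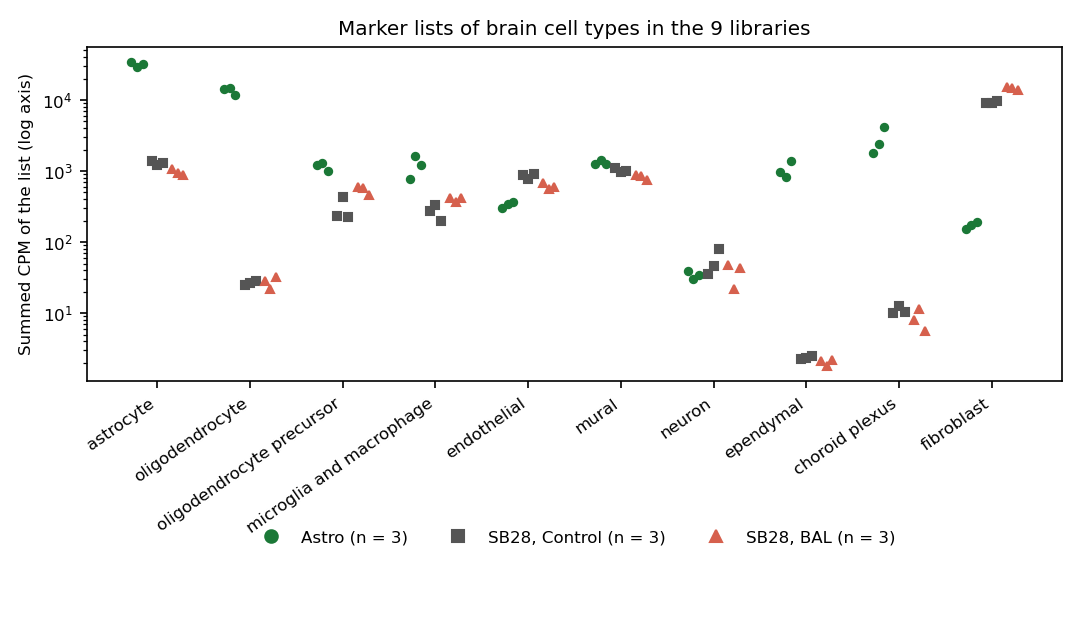
Summed CPM (log axis) of 10 marker lists in each of the 9 libraries, 1 point per library. Astro points lie above all SB28 points for the astrocyte, oligodendrocyte, oligodendrocyte precursor, microglial, mural, ependymal and choroid plexus lists, below them for the endothelial and fibroblast lists, and among them for the neuron list. Single genes can set a sum, as Cdh5 did for the endothelial list in SB28, of whose 10 markers 6 were higher in Astro and 1 lower.

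Between 22919523 and 34013875 reads were counted per library. The Astro libraries had at least 1 count in 17658 to 17766 genes and the SB28 libraries in 15115 to 15742. Of 24421 rows in the table, 15408 passed edgeR's filter on low counts and were tested. Of these, 6869 (44.6%) were higher in Astro than in both Control and BAL at an adjusted p under 0.05, and 5460 (35.4%) were lower than in both. Most genes thus differed, and every count of list members given here stands against these shares. Members and lists were chosen with earlier results of these data known, and no count was tested against the shares. Astro and SB28 values did not overlap for 12661 of the 15408 genes, so a lack of overlap was common too. With an estimated difference of at least 8-fold from both groups also required, 3172 genes (20.6%) were higher and 905 (5.87%) lower. The 8-fold size was a cut on the estimates and was not itself tested. The median log2 fold change over all genes tested was 0.24. For single genes, the log2 fold change is Astro against the mean of Control and BAL with its SE, and the adjusted p is the larger of those against Control and against BAL, adjusted by Benjamini-Hochberg within edgeR's quasi-likelihood test of each contrast.

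The 10 leading rises and 10 leading falls were ranked by the smaller of a gene's log2 fold changes against Control and against BAL. They were taken from genes that passed in both contrasts, without overlap and with a mean of at least 50 CPM on the higher side. The leading rises were near or at the limit of detection in the tumor cells. Nkain4 (chromosome 2, 180934772 to 180954699, GRCm38), whose product interacts with the sodium pump, had 104, 94.0 and 120 CPM in Astro and no count in any SB28 library. Taking 3 counts per library as the floor, it was at least 792-fold higher in Astro. Gm973 (chromosome 1, 59516264 to 59636417) had 74.3, 66.6 and 95.5 CPM in Astro and none in SB28, and was at least 588-fold higher. Mmd2, a membrane protein of the progestin and adiponectin receptor family, had 617, 510 and 563 CPM against a median of 0.0707 (range 0 to 0.112) in SB28, a log2 difference of 12.93 (SE 0.18, adjusted p = 6.81e-11). Gpr37l1, an orphan receptor of glia, had 1879, 1606 and 1938 CPM against 0.167 to 0.371 (log2 fold change 12.65, SE 0.16, adjusted p = 4.86e-11). Grin2c, an NMDA receptor subunit, was at 436, 413 and 428 CPM against 0 to 0.135, with a log2 fold change of 12.68 (13.27 without Control replicate 3).

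A further 5 of the 10 leading genes had 1 or 2 counts over all 6 SB28 libraries, and their ratios carry wide counting intervals. Ccdc153, expressed in cells with motile cilia, had 145, 126 and 220 CPM in Astro and 1 count in SB28, a ratio of 26646 (95% interval 4783 to 1052480). Ccdc108, now named Cfap65, a protein of cilia and flagella, had 140, 122 and 186 CPM and 2 counts in SB28, a ratio of 12160 (3366 to 100410). Timp4, an inhibitor of metalloproteinases, had 104, 86.8 and 116 CPM and 1 count (ratio 16652, 2989 to 657713). Cyp4f15, a cytochrome that oxidizes lipids, had 119, 118 and 139 CPM and 2 counts (ratio 10204, 2825 to 84260). Kcnj16, an inward rectifier potassium channel subunit, had 128, 107 and 127 CPM and 2 counts (ratio 9821, 2719 to 81096). The intervals cover counting error only, and leaving out a single SB28 library that held such a count (Control replicate 1 for Ccdc108 and Cyp4f15, Control replicate 3 for Kcnj16, BAL replicate 2 for Timp4, BAL replicate 3 for Ccdc153) moved the fitted log2 value to 14.11, 13.85, 13.79, 14.45 and 15.09.

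Over the 10 leading rises, the 6 SB28 libraries reached at most 0.0383% of the Astro mean of any gene. The 10 leading falls were less complete. In 9 of the 10, Astro replicate 3 had the highest level of the 3 Astro libraries. Its median was 0.308% of the SB28 mean, against 0.0788% in Astro replicate 1 and 0.0382% in Astro replicate 2.

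Among these falls, Crabp1 (chromosome 9, 54764748 to 54773110), which binds retinoic acid in the cytoplasm, had 1.45, 0.777 and 6.55 CPM in Astro and a median of 1909 (1665 to 2177) in SB28. Its log2 fold change was -9.40 (SE 0.64, adjusted p = 2.49e-07), and -10.74 without Astro replicate 3. Mmp3 (stromelysin, a secreted metalloproteinase) was at 0.441, 0.495 and 3.28 CPM against a median of 913 (745 to 2379), a log2 fold change of -9.70 that became -11.22 without Astro replicate 3. Lrrc15, a membrane protein of mesenchymal cells, had 0.0315, 0.0707 and 0.963 CPM against 166 to 326, and its log2 fold change of -9.51 became -12.12 without that library. Fosl1, the AP-1 subunit Fra-1, had 0.158, 0.0353 and 0.578 CPM against 143 to 187 (log2 fold change -9.34, SE 0.35, and -10.60 without that library). Ereg, a ligand of the EGF receptor, had 0.189, 0.0707 and 1.0 CPM against 174 to 292 (log2 fold change -9.09, and -10.64 without it). A lack of overlap was a condition for choosing these 5 genes, and the size of each fall depended on Astro replicate 3.

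The remaining falls included a kinase and a phosphatase. Dusp9, a phosphatase that inactivates MAP kinases, had 0.0631, 0.0707 and 0.116 CPM in Astro and 33.9 to 118 in SB28 (log2 fold change -9.58, SE 0.44). Fam110c had 0.0631, 0.0707 and 0.193 CPM against 43.5 to 99.0 (log2 fold change -9.42, and -10.04 without Astro replicate 3). Prkg2, a cGMP-dependent kinase, was the exception to the order of the libraries, with 0.410, 0 and 0.193 CPM against 104 to 184 (log2 fold change -9.30, and -10.44 without Astro replicate 1). Cdkn2a, also among the 10, is described with the p53 genes below.

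**Figure D2:**
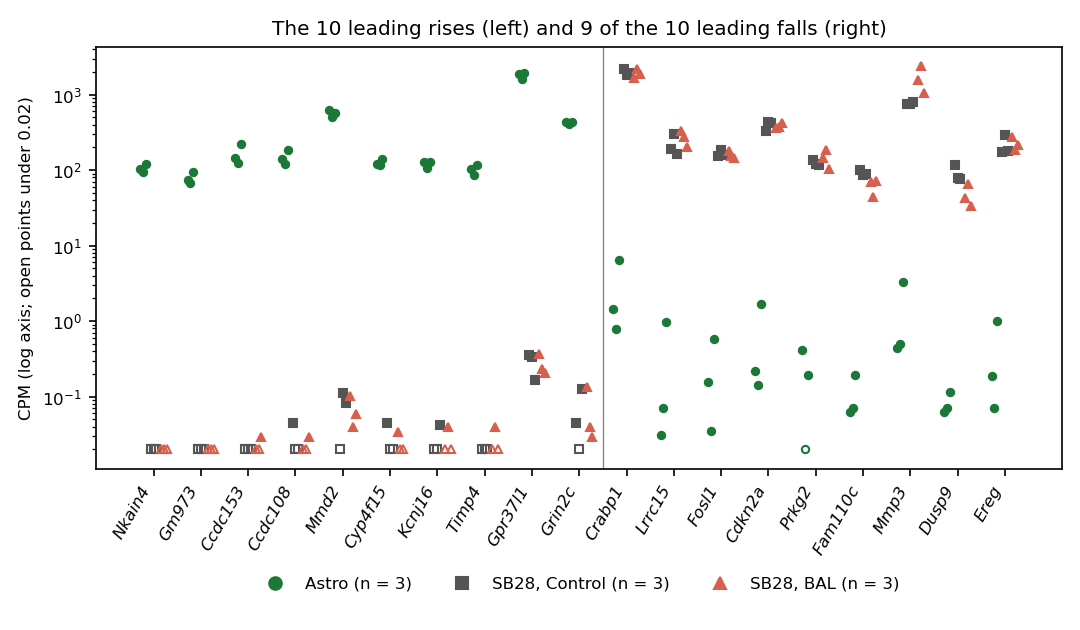
CPM (log axis) of the 10 leading rises and 9 of the 10 leading falls in each library, 1 point per library, with values under 0.02 CPM drawn as open points at 0.02. For the rises, all SB28 points lie at or below 0.371 CPM, and for these falls all Astro points lie at or below 6.55 CPM.

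Genes for the uptake of transmitters, potassium and water were higher in Astro throughout. All 16 genes of this list were higher than in both SB28 groups, 14 of them at least 8-fold (20.6% of all genes tested were), with a median log2 fold change of 11.92 (0.24 over all genes tested). Slc1a2, the glutamate transporter GLT-1, had 6101, 4870 and 4886 CPM in Astro and 0.849 to 1.59 in SB28 (log2 fold change 11.96, SE 0.18, adjusted p = 9.65e-11). The water channel Aqp4 was at 724, 554 and 673 CPM against 0.0581 to 0.208 (12.20, SE 0.16). Kcnj10, the potassium channel Kir4.1, had 1036, 1006 and 914 CPM against 0.0675 to 0.375. The GABA transporter Slc6a11 was at 1793, 1496 and 1829 CPM against 0.196 to 0.473. Enzymes of the same cycle were present in the SB28 libraries as well. Glul, which makes glutamine from glutamate, had 6041, 5818 and 5467 CPM against 49.8 to 92.1 (log2 fold change 6.41, SE 0.13), and Glud1, the mitochondrial glutamate dehydrogenase, 580, 488 and 546 against 200 to 254 (1.20, SE 0.08, adjusted p = 1.05e-06). Slc7a11, the cystine and glutamate exchanger, had 254, 191 and 176 CPM against 20.2 to 60.4 (2.33, SE 0.19). Astro and SB28 did not overlap for any of these genes (nor for 12661 of the 15408 genes tested).

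Gap junction and endfoot genes divided into those nearly absent from the SB28 libraries and those found on both sides. All 11 were higher in Astro, with a median log2 fold change of 3.71, but 6 reached 8-fold. Gja1 (connexin 43) had 1642, 1385 and 1639 CPM in Astro and 641 to 920 in SB28, a log2 fold change of 0.98 (SE 0.08, adjusted p = 2.98e-05), while Gjb6 (connexin 30) had 307, 300 and 389 CPM against 0 to 0.156 (11.85, SE 0.23). Hepacam and Mlc1, membrane proteins of endfeet that bind each other, were at 659 to 689 and 610 to 773 CPM in Astro and at most 0.268 and 0.270 in SB28. Dag1, the dystroglycan that anchors endfeet to the basal lamina, was the smallest difference of the list, with 349, 297 and 309 CPM against 215 to 282 (0.34, SE 0.10, adjusted p = 0.0247). Its call was lost in 6 of 18 alternative settings, with adjusted p of up to 0.104, among them leaving out Astro replicate 1 (log2 fold change 0.26), any one Control replicate or BAL replicate 3.

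Among 14 genes of glycogen, lactate and fatty acid use, 10 were higher in Astro and 2 lower, with a median log2 fold change of 1.13. Pygm, a glycogen phosphorylase, had 112, 115 and 139 CPM in Astro and 0.292 to 1.01 in SB28 (7.38, SE 0.18). Ppp1r3c, which targets a phosphatase to glycogen, had 103, 91.6 and 98.7 CPM against 0.298 to 1.96, and Bdh1, an enzyme of ketone use, 57.4, 51.0 and 59.2 against 0.782 to 2.09. The lower genes were Gbe1, the glycogen branching enzyme (16.6, 13.6 and 15.0 CPM against 35.5 to 47.1; -1.42, SE 0.11), and Slc16a1, the lactate transporter MCT1 (189, 177 and 167 CPM against 346 to 482; -1.17, SE 0.11). Gys1, the glycogen synthase, overlapped at 46.9 to 53.3 and 48.1 to 76.5 CPM and did not pass (adjusted p = 0.0828), nor did Etfdh, of the electron transfer chain from fatty acids (adjusted p = 0.746).

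Lipid and sterol carriers were higher for 10 of 12 genes and lower for 2, with a median of 3.08. Apoe, the main lipoprotein of the brain, had 6392, 5091 and 5340 CPM in Astro and 2.24 to 10.8 in SB28 (10.44, SE 0.44, adjusted p = 7.29e-08). Ptgds, which makes prostaglandin D2, was at 1867, 2375 and 2467 CPM against 0.610 to 1.12, and Fabp7, the brain fatty acid binding protein, at 459, 324 and 273 against 0.0834 to 0.236. Clu (clusterin) was abundant on both sides, with 3408, 2746 and 3486 CPM against 505 to 1082 (2.20, SE 0.20). Lrp1, an endocytic receptor for lipoproteins, went the other way, with 839, 757 and 781 CPM in Astro and 2058 to 3353 in SB28 (-1.72, SE 0.14, adjusted p = 2.77e-06). No member overlapped.

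Of 15 proteins that organise synapses or brain matrix, 10 were higher and 3 lower in Astro, with a median of 6.82. The proteoglycans Bcan (1758, 1511 and 1640 CPM against 0.196 to 0.500) and Ncan (549, 391 and 409 against 0 to 0.149) were among the higher genes, with log2 fold changes of 12.25 and 12.19, the latter 12.89 without Control replicate 2. Sparcl1 (hevin), which promotes synapses, had 4763, 3837 and 4276 CPM against 80.6 to 239 (4.74, SE 0.21). Thrombospondins 1 and 2, secreted proteins that also promote synapses, were lower in Astro. Thbs1 was at 15.8, 37.3 and 15.9 CPM against 1101 to 1819 (-5.94, SE 0.33, adjusted p = 7.57e-08), and Thbs2 at 53.4, 47.5 and 36.6 against 950 to 1468 (-4.62, SE 0.18). The glypicans differed among themselves. Gpc5 was higher (144, 111 and 121 CPM against 0 to 0.0391), Gpc4 lower (32.8, 27.5 and 31.5 against 79.6 to 123; -1.65, SE 0.09), and Gpc6 overlapped at 58.2 to 72.3 and 8.59 to 66.8 CPM with an adjusted p of 0.0886. The log2 fold change of Gpc5 was 12.22, and 13.20 without Control replicate 2.

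Transcription factors of the glial lineage were higher in Astro for 15 of 20 genes and lower for none, with a median log2 fold change of 3.53. The 5 that did not pass included factors of neural precursors. Sox2 had 164, 137 and 162 CPM in Astro and 50.5 to 122 in SB28 (0.70, SE 0.15), where the test against BAL passed and that against Control did not (adjusted p = 0.0818). Sox9, also an astrocyte marker, overlapped, at 143 to 163 CPM in Astro and 78.3 to 171 in SB28 (adjusted p = 0.918 against Control). Zbtb20, Tcf7l2 and Glis3 did not pass either (adjusted p = 0.536, 0.0637 and 0.765). The oligodendrocyte factors Olig2 and Sox10 were at 146, 150 and 122 CPM and at 448, 499 and 367 CPM in Astro and reached 0.149 and 0.313 CPM in SB28. Nfia, which starts gliogenesis, had 120, 107 and 109 CPM against 1.42 to 4.11 (5.78, SE 0.20), while its relative Nfib had 97.9, 93.7 and 87.5 against 37.3 to 73.1 (0.76, SE 0.10, adjusted p = 0.00872). Lhx2 was at 110, 82.6 and 95.3 CPM against 0 to 0.261 (10.39, and 11.79 without Control replicate 1), and Sox10 had a log2 fold change of 11.30 (11.92 without BAL replicate 2).

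In the Notch pathway, in which a ligand on one cell frees a receptor fragment that acts with Rbpj on Hes and Hey genes, 12 of 16 genes were higher in Astro and 3 lower, with a median of 3.65. The receptor Notch1 had 231, 212 and 191 CPM against 68.4 to 117 (1.18, SE 0.14, adjusted p = 0.000122). Notch2 was lower, with 157, 137 and 124 CPM against 174 to 251 (-0.58, SE 0.11, adjusted p = 0.0048), a call lost under scaling to library totals (adjusted p = 0.151). The ligand Jag1 overlapped, at 28.2 to 29.1 CPM in Astro and 13.7 to 96.1 in SB28 (adjusted p = 0.903 against BAL). Of the target genes, Hes5 had 72.7, 58.7 and 50.05 CPM in Astro and 1 count over the 6 SB28 libraries, a ratio of 9854 (95% interval 1769 to 389221), and Heyl had 96.8, 91.4 and 69.6 against 0 to 0.469 (10.09, and 11.47 without Control replicate 2). The fitted log2 fold change of Hes5 was 12.81, and 13.66 without BAL replicate 3. Hes1 and Rbpj were higher in the tumor cells. Hes1 was at 22.1, 18.1 and 21.5 CPM in Astro and 33.0 to 54.2 in SB28 (-1.08, SE 0.12), and Rbpj at 57.5, 62.1 and 53.9 against 268 to 371 (-2.52, SE 0.09, adjusted p = 3.82e-09).

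**Figure D3:**
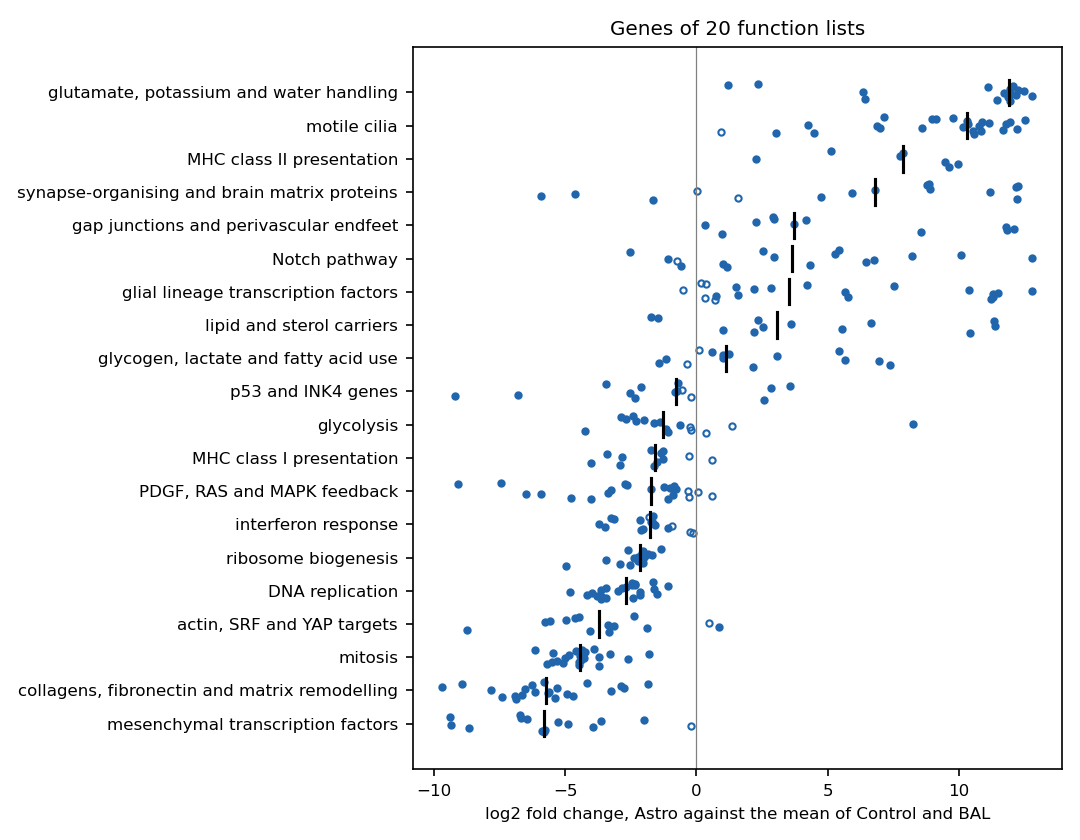
Log2 fold change of Astro against the mean of Control and BAL for the tested genes of 20 function lists, ordered by their median (vertical bar). Filled points passed against both SB28 groups in the same direction and open points did not, and the medians run from -5.81 for mesenchymal transcription factors to 11.92 for glutamate, potassium and water handling.

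Motile cilia, which beat on ependymal cells and are built under Foxj1 and RFX factors, gave the next largest median. Of 26 genes, Mcidas was too low to be tested, and 24 of the other 25 were higher in Astro, 23 at least 8-fold, with a median log2 fold change of 10.32 (10.18 with the gene at 0 in SB28 set to its bound). Ccno was the exception, at 0.884 to 1.07 CPM in Astro and 0.250 to 0.894 in SB28 (adjusted p = 0.117). The summed level was 1332, 1180 and 1754 CPM in Astro replicates 1, 2 and 3 and 9.51 to 18.2 in SB28. The ependymal list, at 965, 837 and 1396 CPM, ordered the Astro libraries in the same way. The part of ependymal cells in the cilia genes was not tested, and Foxj1, Rsph1 and Tekt1 belong to both lists. Foxj1 had 209, 186 and 277 CPM in Astro and 0.0581 to 0.236 in SB28 (10.58, SE 0.21, adjusted p = 4.1e-10). Dnah9, a dynein arm heavy chain, was at 89.3, 75.3 and 110 CPM against 0 to 0.101, and Dnaic2, a dynein intermediate chain, at 44.5, 38.7 and 62.9 against 0.134 to 0.697. Hydin, of the central pair of the axoneme, had 71.7, 63.4 and 88.9 CPM against 0 to 0.134 (10.35, and 12.01 without Control replicate 1).

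RFX factors bind pairs of the core GTTGCC. In RefSeq (GRCm38.p6), the 250 bases before the start held this core on either strand (GTTGCC or GGCAAC) in 9 of the 23 promoters found for 22 of the 26 cilia genes (39.1%), compared with 10.4% of all 32851 promoters. The 150 bases before the start of Tekt1 (chr11:72361883-72362032, minus strand), Cfap44 (chr16:44394649-44394798, plus strand), Hydin (chr8:110266827-110266976, plus strand) and Dnaic2 (chr11:114727269-114727418, plus strand) are shown as examples of genes near 0 in SB28, with the cores in capitals. The 9 also include Ccno, which did not pass, and Mcidas, which was not tested, with cores that ended 213 and 189 bases before the start. A match is a run of letters and not a measured binding site.
Tekt1: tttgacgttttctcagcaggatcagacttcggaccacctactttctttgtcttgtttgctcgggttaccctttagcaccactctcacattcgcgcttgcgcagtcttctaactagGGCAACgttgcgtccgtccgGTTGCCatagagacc
Cfap44: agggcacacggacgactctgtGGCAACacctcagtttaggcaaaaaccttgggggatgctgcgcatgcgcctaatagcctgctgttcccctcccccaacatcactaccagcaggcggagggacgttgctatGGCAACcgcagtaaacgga
Hydin: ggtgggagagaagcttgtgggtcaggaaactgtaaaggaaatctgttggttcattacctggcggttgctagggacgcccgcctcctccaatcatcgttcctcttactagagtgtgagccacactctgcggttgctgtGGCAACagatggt
Dnaic2: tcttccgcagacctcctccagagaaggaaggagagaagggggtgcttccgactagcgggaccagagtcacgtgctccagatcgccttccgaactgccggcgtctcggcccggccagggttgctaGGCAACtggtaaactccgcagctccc

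Tekt1, a filament of the axoneme whose promoter held a core on each strand, had 37.9, 33.9 and 55.3 CPM in Astro and 3 counts over the 6 SB28 libraries, a ratio of 2300 (95% interval 787 to 11153). Cfap44, which also held 2 cores, had 65.1, 62.4 and 83.9 CPM in Astro and 2 counts in SB28 (ratio 5739, 1589 to 47390). Leaving out BAL replicate 2 moved the fitted log2 fold change of Tekt1 from 10.90 to 12.17, and leaving out Control replicate 1 moved that of Cfap44 from 12.52 to 13.94.

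On the tumor side, the list of 22 collagens, fibronectin and remodelling genes was lower in Astro throughout. All 22 were lower than in both SB28 groups, 18 at least 8-fold (5.87% of all genes tested were), with a median log2 fold change of -5.73. They summed to 1450 to 1730 CPM in Astro and 35305 to 50354 in SB28. Col1a1, a chain of collagen I, had 36.4, 36.1 and 50.3 CPM in Astro and a median of 5000 (3576 to 5757) in SB28 (-6.87, SE 0.19, adjusted p = 4.73e-10). Fn1 (fibronectin) had 100, 119 and 123 CPM against 4430 to 7198 (-5.64, SE 0.17), and Tnc, a matrix protein of gliomas and of developing brain, had 18.4, 11.1 and 21.8 against 1966 to 6127 (-7.82, SE 0.51). The metalloproteinase inhibitor Timp1, unlike Timp4, was higher in the tumor cells, with 1.17, 1.20 and 3.97 CPM in Astro and 631 to 1896 in SB28 (-8.94, and -9.74 without Astro replicate 3). Cd44, the hyaluronan receptor, was at 12.5, 10.3 and 11.8 CPM against 580 to 696 (-5.81, SE 0.11). Smaller differences were seen for Vim (273, 240 and 345 CPM against 4693 to 5784; -4.19), an intermediate filament of immature glia and mesenchyme, and for Sparc (731, 701 and 806 against 4131 to 6283; -2.75). No member of the list overlapped (nor did 12661 of the 15408 genes tested). The fibroblast markers Dcn and Lum leaned higher in Astro (log2 fold changes 1.62 and 3.21). They did not pass against BAL (adjusted p = 0.122 and 0.062), with Dcn at 26.1 to 38.1 CPM in Astro and 3.8 to 34.2 in SB28.

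Genes of actin, SRF and YAP activity were lower in Astro for 12 of 14 and higher for 1, with a median of -3.72. Flna (filamin A), which crosslinks actin, had 207, 205 and 230 CPM in Astro and 3472 to 6194 in SB28 (-4.47, SE 0.12). Tpm1 (tropomyosin) had 52.2, 52.4 and 63.5 CPM against 1333 to 2215, and Cnn2 (calponin) 10.5, 12.8 and 14.4 against 381 to 858. Ankrd1, a YAP target, had 1 count over the 3 Astro libraries and 2.99 to 19.0 CPM in SB28 (-8.77, SE 1.15, and -10.57 without Astro replicate 1, which held that count). Amotl2, a YAP target that restrains YAP, was the gene higher in Astro, at 137, 144 and 131 CPM against 58.8 to 102 (0.85, SE 0.12, adjusted p = 0.00124). Myl9, a myosin light chain, overlapped at 54.3 to 61.8 and 20.5 to 63.6 CPM (adjusted p = 0.476).

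Of 15 mesenchymal transcription factors, 14 were lower in Astro, 13 of them at least 8-fold, and the median was -5.81. Hmga2, a chromatin protein of embryonic cells, had 1.07, 0.283 and 5.32 CPM in Astro and 922 to 2237 in SB28 (-9.40, SE 0.71, and -11.03 without Astro replicate 3). Twist2 was at 0.0315, 0.141 and 0.116 CPM against 31.2 to 52.5 (-8.68, SE 0.31), Snai1 at 1.10, 1.31 and 1.39 against 55.7 to 80.8, and Runx1 at 4.95, 7.28 and 5.74 against 148 to 209. Tead4, the partner of YAP, had 0.568, 0.283 and 0.270 CPM against 21.1 to 40.0 (-6.48, SE 0.30). Zeb1 did not separate the groups, with 83.2 to 93.7 CPM in Astro and 86.9 to 117 in SB28 (adjusted p = 0.224). AP-1 binds TGAGTCA and its complement TGACTCA. This motif was found in the 250 bases before the start in 2 of the 18 promoters (11.1%) of the 15 matrix genes found in RefSeq, against 4.5% of all promoters. Mmp3, one of the 10 leading falls, held it 39 bases before the start, and its last 150 bases (chr9:7445672-7445821, plus strand, GRCm38.p6) are shown with the motif in capitals.
Mmp3: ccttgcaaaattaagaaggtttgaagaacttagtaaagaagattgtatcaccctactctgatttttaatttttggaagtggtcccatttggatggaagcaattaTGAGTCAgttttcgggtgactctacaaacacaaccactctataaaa

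Genes of PDGF, RAS and MAPK feedback were lower in Astro for 17 of 21 and higher for none, with a median of -1.75. Of the ligands, Pdgfb had 14.8, 19.8 and 20.5 CPM in Astro and 285 to 324 in SB28 (-4.04, SE 0.12, adjusted p = 8.88e-10), whereas Pdgfa had 23.6, 26.9 and 22.5 against 42.4 to 61.5 (-1.10, SE 0.11). Of the receptors, Pdgfra, also a marker of oligodendrocyte precursors, was at 7.22, 9.26 and 8.59 CPM against 126 to 330 (-4.77, SE 0.17). Pdgfrb overlapped, at 232 to 252 and 216 to 371 CPM (adjusted p = 0.956 against Control), and Egfr overlapped at 51.2 to 57.5 and 18.5 to 59.3 (adjusted p = 0.578 against Control). Nras itself had 77.6, 76.4 and 67.3 CPM against 134 to 140 (-0.88, SE 0.07, adjusted p = 1.37e-06). Of the feedback phosphatases and adaptors that MAPK activity induces, Dusp4 had 2.40, 1.98 and 1.77 CPM against 78.3 to 174 (-5.94, SE 0.21), Dusp6 43.3, 41.8 and 43.0 against 351 to 525 (-3.39, SE 0.15), and Spry4 21.5, 20.4 and 19.6 against 151 to 253 (-3.26, SE 0.17). Spry2 (-0.31) overlapped and did not pass against BAL (adjusted p = 0.303).

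The p53 and INK4 list went both ways, with 3 of 14 genes higher, 9 lower and a median of -0.78. Trp53 (chromosome 11, 69580359 to 69591873), the gene against which the hairpin of SB28 is directed, had 32.9, 32.1 and 30.1 CPM in Astro. It was at a median of 5.78 (3.02 to 9.5) CPM in SB28, a log2 fold change of 2.56 (SE 0.10, adjusted p = 1.39e-07). The other higher genes were the p53 targets Sesn1 (63.8, 63.8 and 68.1 CPM against 6.89 to 12.6; 2.86, SE 0.11) and Trp53inp1 (54.0, 51.3 and 53.2 against 2.16 to 9.23; 3.58, SE 0.18). Other p53 targets of the list went the other way and were lower in Astro, Cdkn1a among them. The cell cycle inhibitors were higher in the tumor cells. Cdkn2a (chromosome 4, 89274471 to 89294653), which encodes p16 and p19, had 0.221, 0.141 and 1.70 CPM in Astro and 325 to 437 in SB28 (-9.22, SE 0.51, and -11.02 without Astro replicate 3). Its neighbour Cdkn2b had 0.820, 1.52 and 1.54 CPM against 120 to 160 (-6.79, SE 0.21), and Cdkn1a (p21) 17.4, 19.4 and 27.4 against 86.2 to 127 (-2.35, SE 0.17). Mdm2 and Bbc3 did not pass (adjusted p = 0.263 and 0.179).

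Both cell cycle lists were higher in the tumor cells. All 22 mitosis genes were lower in Astro, 20 at least 8-fold, with a median of -4.46, and they summed to 91.5 to 108 CPM in Astro and 1688 to 1978 in SB28. Cdk1, the kinase that starts mitosis, had 1.45, 1.87 and 2.74 CPM in Astro and a median of 109 (83.8 to 127) in SB28 (-5.71, SE 0.19, adjusted p = 1.79e-09). Ube2c, which works with the anaphase-promoting complex, was at 1.51, 1.38 and 1.81 CPM against 90.6 to 130 (-6.14, SE 0.13), and its activator Cdc20 at 3.03, 2.97 and 2.85 against 56.1 to 66.3 (-4.38, SE 0.09). Top2a, which untangles chromosomes, had 10.7, 10.9 and 11 CPM against 217 to 260, and Mki67, the proliferation antigen, 9.96, 10.7 and 12 against 111 to 215. Kif11, a spindle motor, differed least of those named here, with 13.7, 12.5 and 16.9 CPM against 38.1 to 64.6 (-1.83, SE 0.14).

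Many mitosis genes carry the cell cycle homology region (CHR), TTTGAA, near their start. The 250 bases before the start held TTTGAA or its complement TTCAAA in 8 of the 20 promoters found for 19 of the 22 mitosis genes (40.0%), against 16% of all 32851. The last 150 bases before the start are given for Cdk1 (chr10:69352913-69353062, minus strand), Cdc20 (chr4:118437344-118437493, minus strand), Ube2c (chr2:164769779-164769928, plus strand) and Top2a (chr11:99024190-99024339, minus strand), from RefSeq GRCm38.p6, because these genes had large falls and a match close to the start. The matches, in capitals, ended 9, 12, 23 and 17 bases before it.
Cdk1: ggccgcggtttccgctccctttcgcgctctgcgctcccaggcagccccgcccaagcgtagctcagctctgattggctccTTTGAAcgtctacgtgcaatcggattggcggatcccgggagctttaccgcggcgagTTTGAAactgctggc
Cdc20: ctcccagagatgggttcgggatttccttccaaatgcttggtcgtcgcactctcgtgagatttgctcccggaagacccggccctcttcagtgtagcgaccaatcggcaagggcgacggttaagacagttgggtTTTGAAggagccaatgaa
Ube2c: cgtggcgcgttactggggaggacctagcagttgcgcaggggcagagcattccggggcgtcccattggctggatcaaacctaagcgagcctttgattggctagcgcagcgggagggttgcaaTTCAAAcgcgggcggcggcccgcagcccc
Top2a: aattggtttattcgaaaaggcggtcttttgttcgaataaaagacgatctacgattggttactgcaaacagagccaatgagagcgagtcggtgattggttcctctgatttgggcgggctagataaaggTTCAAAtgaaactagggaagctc

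DNA replication genes were also lower in Astro for all 23 members, 9 at least 8-fold, with a median of -2.67. Mcm6, a subunit of the replicative helicase, had 16.7, 15.1 and 18.5 CPM in Astro and 192 to 296 in SB28 (-3.81, SE 0.12). Cdt1, which loads that helicase, had 2.24, 2.33 and 2.43 CPM against 57.7 to 76.1 (-4.81, SE 0.13), and Rrm2, which makes deoxynucleotides, 8.29, 9.68 and 9.40 against 91.7 to 109. Pcna, which also serves DNA repair, was at 73.6, 73.5 and 68.7 CPM against 186 to 216 (-1.50, SE 0.08), and the primase Prim1 at 9.11, 8.52 and 9.32 against 16.8 to 23.7 (-1.10, SE 0.13). All 16 genes of ribosome biogenesis were lower too, with a median of -2.15. Myc, a factor that drives them, had 6.78, 6.36 and 8.25 CPM against a median of 160 (131 to 542), a log2 fold change of -4.96 (SE 0.55, adjusted p = 1.74e-05). The nucleolar proteins Ncl (190, 200 and 200 CPM against 974 to 1292) and Npm1 (106, 116 and 121 against 758 to 1025) had log2 fold changes of -2.54 and -2.92. No member of these 3 lists overlapped, as was the case for 12661 of the 15408 genes tested.

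Of 17 glycolysis genes, 16 passed the filter on low counts. Of these, 11 were lower in Astro and 1 higher, with a median of -1.27. Hk2, a hexokinase, had 6.09, 9.79 and 8.90 CPM in Astro and 99.3 to 215 in SB28 (-4.23, SE 0.30), whereas Hk1 had 146, 136 and 145 against 217 to 421 (-1.09, SE 0.12). Pkm (pyruvate kinase) was at 639, 603 and 662 CPM against 2961 to 5064 (-2.67, SE 0.14), and Gapdh at 941, 851 and 954 against 1832 to 3172 (-1.39, SE 0.13, adjusted p = 1.77e-05). The isozymes changed places. Aldoc, the brain aldolase, was the gene higher in Astro, with 2584, 2268 and 2691 CPM against 5.02 to 15.2 (8.25, SE 0.31), while Aldoa, the ubiquitous form, had 748, 728 and 764 against 810 to 1596 (-0.64, SE 0.18, adjusted p = 0.0455). The call on Aldoa was lost in 12 of 18 alternative settings, with adjusted p of up to 0.152, among them leaving out any Astro replicate or BAL replicate 1 or 2. Counts divided by exon length gave Aldoc a share of 78.0 to 80.0% of the pair in Astro and 0.523 to 1.70% in SB28. This length joins all annotated exons of a gene and can differ from that of the transcripts expressed, so the shares are approximate. Lactate dehydrogenase showed the same. Ldhb, the heart form, had 433, 389 and 451 CPM against 5.96 to 10.9 (5.65, SE 0.15), and Ldha, the muscle form, 131, 123 and 144 against 610 to 1356 (-2.88, SE 0.22). Per length (1570 bases for Ldhb and 3310 for Ldha), Ldhb made 86.9 to 87.4% of the pair in Astro and 1.5 to 2.68% in SB28. Slc2a1, the glucose transporter GLUT1, overlapped at 397 to 470 and 146 to 494 CPM (adjusted p = 0.535), and Gpi1, Pfkp and Pfkfb3 did not pass (adjusted p = 0.542, 0.816 and 0.113).

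**Figure D4:**
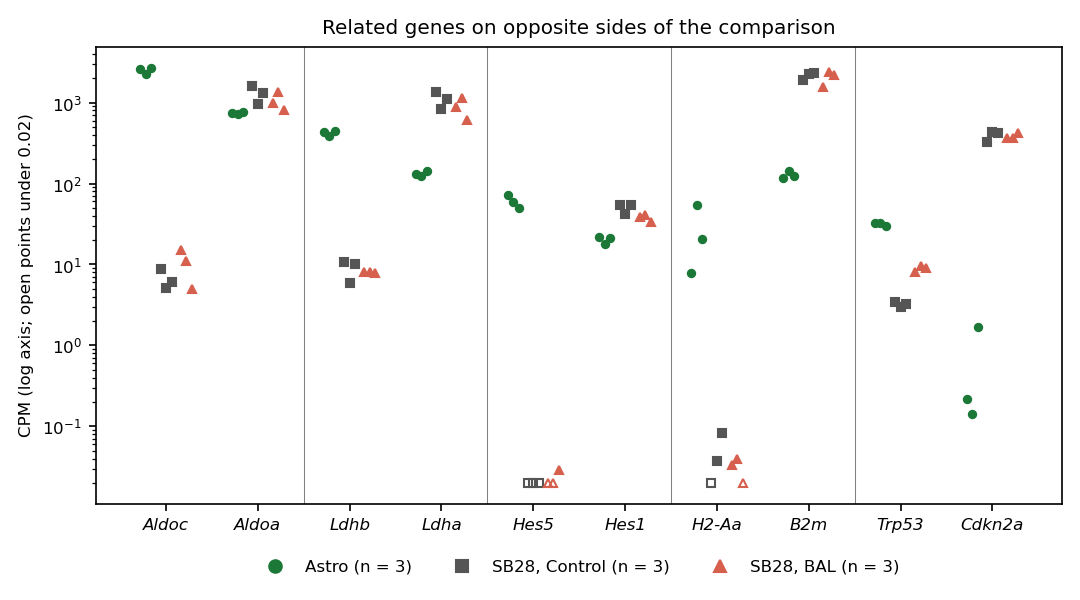
CPM (log axis) of 10 genes in related pairs in each library, 1 point per library, with values under 0.02 CPM drawn as open points at 0.02. Aldoc, Ldhb, Hes5, H2-Aa and Trp53 are higher in the 3 Astro libraries, and Aldoa, Ldha, Hes1, B2m and Cdkn2a are higher in the 6 SB28 libraries, where the call on Aldoa (adjusted p = 0.0455) was lost in 12 of 18 alternative settings.

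Antigen presentation also split by class. MHC class I genes, which show peptides from inside the cell, were lower in Astro for 10 of 12 and higher for none, with a median of -1.56. B2m, the light chain, had 116, 144 and 125 CPM in Astro and 1573 to 2414 in SB28 (-4.04, SE 0.18, adjusted p = 1.2e-08). H2-D1 (28.1, 37.6 and 32.8 CPM against 196 to 286; -2.93, SE 0.17) and H2-K1 (125, 144 and 131 against 267 to 561; -1.61, SE 0.16) are near-identical in places, and reads they share leave their single values uncertain. Nlrc5, the activator of the class I genes, was at 3.94, 4.59 and 3.20 CPM against 26.9 to 61.2 (-3.41, SE 0.20). Tap2 and Psmb9, of peptide transport and cleavage, did not pass (adjusted p = 0.47 and 0.809). The 7 MHC class II genes, which show peptides taken up from outside, were all higher in Astro, with a median of 7.86. H2-Aa had 7.91, 54.1 and 20.8 CPM against 0 to 0.0834 (9.62, SE 0.75, and 8.68 without Astro replicate 2), and Cd74, the invariant chain, 19.0, 109 and 46.5 against 0.0871 to 0.548 (7.86, SE 0.59, and 7.02 without it). The summed class II level of 48.8, 267 and 114 CPM in Astro replicates 1, 2 and 3 and the summed microglia and macrophage markers, at 776, 1645 and 1199, placed the 3 libraries in the same order. The part of microglia in the class II genes was not tested.

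Interferon response genes were lower in Astro for 12 of 16 and higher for none, with a median of -1.75. Isg15, a ubiquitin-like modifier, had 4.89, 3.60 and 4.05 CPM in Astro and 21.9 to 84.3 in SB28 (-3.71, SE 0.47, adjusted p = 4.47e-05), and the RNA-binding Ifit1 6.53, 5.23 and 5.12 against 29.6 to 98.4. The transcription factor Irf1 was at 16.1, 17.5 and 17.0 CPM against 55.5 to 97.5 (-2.11, SE 0.13). Stat2, Ifit2 and Rsad2 did not pass (adjusted p = 0.302, 0.0604 and 0.0724), though Ifit2 passed in 7 of 18 alternative settings and Rsad2 in 4.

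A single direction did not hold for all genes. Of the genes tested, 997 passed against Control and not against BAL, 761 passed against BAL and not against Control, 1269 passed against neither, and 52 passed against both with opposite signs. In the same fit, 3022 genes (19.6% of those tested) differed between BAL and Control. Among the genes of opposite signs that were higher than Control, the leading 3 were Mfap4, Eln and Aspn, which encode elastic fiber and matrix proteins. Aspn (asporin) had 7.09, 10.04 and 8.67 CPM in Astro and means of 0.461 in Control and 23.2 in BAL, with log2 fold changes of 4.14 against Control (adjusted p = 2.8e-05) and -1.43 against BAL (adjusted p = 0.00636). Mfap4, a microfibril protein, had 2.14, 2.44 and 2.50 CPM with means of 0.0759 in Control and 10.8 in BAL (4.78 and -2.18, adjusted p = 0.0077 and 0.0358). Eln (elastin) had 19.3, 22.9 and 21.0 CPM with means of 4.10 and 90.5 (2.33 and -2.10, adjusted p = 0.02 and 0.0215). The differences from BAL depended on BAL replicate 2 for Mfap4 and Eln, whose values without it were -0.06 and -0.58 (adjusted p = 0.888 and 0.228), and both calls were lost in other alternatives too. Without Control replicate 2, the differences from Control were 5.75 for Aspn, 6.47 for Mfap4 and 2.96 for Eln. Aspn passed both tests under every alternative run. In the reverse order, Akr1c13, an aldo-keto reductase, had 1.04, 1.17 and 1.16 CPM with means of 2.61 in Control and 0.593 in BAL (-1.22 and 0.91, adjusted p = 0.0019 and 0.0155). Eefsec, an elongation factor for selenocysteine, had 16.2, 14.6 and 15.7 CPM with means of 20.9 and 12.2, and Ctxn1 (cortexin) had 36.9, 31.7 and 44.5 with means of 47.1 and 30.1. Each of these 3 calls was lost in at least 1 alternative, that of Ctxn1 in 16 of 18. Among list members, Spry1, a MAPK feedback inhibitor, and Nlgn2, a neuroligin, had opposite signs (for Nlgn2, the call was lost in 15 of 18 alternatives), and Spry1 was at 17.3, 17.0 and 15.0 CPM in Astro with means of 7.90 in Control and 31.5 in BAL.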

How the data were processed

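RNA was sequenced from 9 samples, 3 each of Astro, Control and BAL, grouped by the labels. The authors made stranded libraries with 50 bp reads, mapped them with TopHat to mm10 and counted them with HTSeq 0.6.1 and featureCounts. Which counter made the table is not given in the sources used here, nor is the annotation. The deposited values are whole-number counts per gene, not normalized. In the table, 27 gene names had become dates. These rows were kept and are not named.

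The tests were run with edgeR 4.0.16 under R 4.3.3 (filterByExpr, TMM, quasi-likelihood test, two-sided, Benjamini-Hochberg adjustment over all genes tested, threshold 0.05). A single model held the 9 libraries with 3 group means. SE was taken as the log2 difference over the root of its F. CPM is scaled by TMM, and positions come from GENCODE vM21. The script was tested on simulated data in which few genes differed. Most genes differed here, so that test does not cover the scaling in this setting.

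Genes named were 2 to 5 members of each list by their role, the 10 largest rises and 10 largest falls (ranked by the smaller of the log2 fold changes against Control and against BAL) past the threshold in both contrasts without overlap and with a mean of at least 50 CPM on the higher side, and up to 3 genes of each kind with opposite directions. Further list members named, such as those that did not pass, were chosen after their values were seen. A few genes are not reported here, and counts, medians and sums use each list whole. Members and lists were chosen with earlier results of these data known. Replicates of a group differed by 14.3 to 64.9 times the sampling noise (chi-square per degree of freedom), so none was counted as a repeat deposit.

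Alternatives were other scalings, other filters on low counts, DESeq2 1.42.0, limma-trend (limma 3.58.1), separate fits, the 6 SB28 libraries as 1 group, other fold sizes, each library left out, and the replicate number as a block.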

Additional observations from a re-analysis of the deposited data

Results flagged for a closer look

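For the genes given here, the difference of Astro from Control and the difference of Astro from BAL were not of 1 size. The BAL minus Control contrast of the same edgeR fit, which is the difference between the pair, passed an adjusted p of 0.05 (quasi-likelihood, Benjamini-Hochberg, the largest being 0.0498 for Mki67). Values are log2, positive where BAL was higher, and treatment and time of growth cannot be told apart. Of all genes tested, 19.6% passed this test. No group was large enough for a search for single outlying samples.

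Among matrix genes and their markers, the contrast was 6.97 for Mfap4, 5.58 for Aspn, 4.44 for Eln, 2.10 for Dcn, 0.48 for Col1a1, -0.40 for Sparc and -1.07 for Timp1. Among contractile and junction genes it was -0.61 for Flna, -0.43 for Tpm1, -0.76 for Cnn2, -0.38 for Gja1 and -0.53 for Cdh5.

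Receptors and feedback genes of the growth factor pathway gave 0.95 for Pdgfra, 0.56 for Pdgfrb, -0.97 for Egfr, 1.99 for Spry1, -0.68 for Dusp4 and -0.92 for Dusp9. The p53 genes gave 1.47 for Trp53, 0.54 for Sesn1 and 1.40 for Trp53inp1. Mitosis genes gave 0.51 for Mki67 and 0.46 for Kif11.

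Glial and Notch genes gave -0.67 for Sox2, -0.66 for Sox9, 0.75 for Nfib, 0.31 for Rbpj and -1.40 for Jag1. Synapse genes gave 1.65 for Gpc6, 0.46 for Gpc4 and 0.57 for Nlgn2, and metabolic genes -0.44 for Glul, 0.81 for Slc7a11, -0.62 for Hk1 and -0.46 for Gapdh. Antigen presentation and interferon genes gave 0.57 for H2-K1, 0.62 for Nlrc5, 0.85 for Tap2 and 1.02 for Stat2. The contrast was -2.13 for Akr1c13, -0.77 for Eefsec and -0.64 for Ctxn1.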

How the results depend on the processing

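Under the alternatives run, no named gene called in a single direction reversed it, and none called in opposite directions reversed either difference. The mean of both differences changed sign for Eln, Ctxn1, Spry1, Nlgn2, Eefsec and Akr1c13, of opposite directions, and with library totals for Gpi1, Mdm2 and Zeb1, which were not called. The counts of genes higher and lower in Astro than in both SB28 groups stayed within 1.5 times their values. Genes at least 8-fold lower numbered 905, against 1625 at 4-fold and 548 at 16-fold. The 52 genes of opposite direction ranged from 26 to 62 with 1 library left out, the 3 lowest counts being 26, 29 and 31 without Astro replicates 1, 2 and 3. With the replicate number as a block, 6866 genes were higher and 5420 lower. Same-numbered libraries had correlations of deviations from -0.01 to 0.11, so the numbers were not taken as pairs. Upper-quartile scaling, library totals and the filter of 1 count in any library moved the median of all genes by 0.14, 0.21 and 0.20 (log2), and a mean of at least 1 CPM by -0.11. Of the values of named genes under alternatives, 2854 kept their side of the threshold, 43 newly passed it and 69 no longer did. The lost calls were of Ctxn1 (16), Nlgn2 (15), Mfap4 (7), Eln (6), Eefsec (5) and Akr1c13 (1), all of opposite directions, and of Aldoa (12), Dag1 (6) and Notch2 (1). The values that newly passed were of Ifit2 (7), Gpc6, Sox2 and Tcf7l2 (6 each) and Lum (5). They were also of Gys1 and Rsad2 (4 each), Ccno (2), and Mdm2, Pfkfb3 and Dcn (1 each). The list medians kept their sign, and 94 of 360 values moved by more than the spread between Astro libraries, by at most 1.97 (motile cilia, limma-trend). Genes with few counts in 1 side are limited by depth: their direction held, and their fold is uncertain.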
